A study of Homo sapiens with 12 samples.

Results

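The genes described here encode the proteins of the small (40S) subunit of the cytoplasmic ribosome. They were taken from the gene count tables by symbol: RPSA, FAU and every symbol made of RPS and a digit, without the S6 kinase genes (RPS6K), RPS19BP1 and pseudogenes. That gave 34 genes of the 15414 listed in cells, exosomes or both. All 34 were listed in both compartments and read in each of the 12 libraries, and all 34 passed the filter on low counts in every comparison. The set holds RPS27L, a paralogue of RPS27, and the read-through gene RPS10-NUDT3, whose transcript runs from RPS10 into the neighbouring gene NUDT3. RACK1, a 40S protein with another style of symbol, falls outside the rule.

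RNA was sequenced from AC16 and from exosomes, the small membrane vesicles that these cells shed. AC16 is an established human line in which adult ventricular cardiomyocytes were fused with transformed fibroblasts; it is a proliferating hybrid. The 4 groups had 3 libraries each: exosomes labelled Ang, exosomes labelled Con, cells labelled Ang and cells labelled Con. The study set out to describe RNA of exosomes in cardiomyocyte hypertrophy, and the labels do not spell out either abbreviation, a dose or a time. All 4 groups come from the same line. Separate cultures are not named for the 3 libraries of a group, so the p-values speak of library-to-library spread alone, part or all of which may be technical. Exosome RNA was isolated on exoRNeasy Maxi columns and sequenced from SMARTer Stranded Total RNA libraries, whereas cell RNA came from the miRNeasy Micro kit and VAHTS Universal libraries. Compartment and kit therefore cannot be told apart in any comparison of exosomes with cells.

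Gene reads numbered 535442 to 587783 in Ang exosome libraries, 717263 to 745311 in Con exosome libraries, 9202471 to 10623090 in Ang cell libraries and 9442962 to 11212674 in Con cell libraries. CPM are reads scaled to a fixed library total. The marker sums in this paragraph use raw totals, and CPM in later paragraphs use totals with edgeR's normalization factors. Of 12 cardiomyocyte markers, 3 were listed in exosomes and 9 in cells. MYH6, MYL2 and MYL7 were not listed in cells, where TNNT2 had 0 to 9 reads a library. TTN had 709 to 935 reads in cell libraries, GATA4 239 to 335 and each other listed cardiomyocyte marker at most 45. Cardiomyocyte markers summed to 25.1 to 65.4 CPM in exosomes and 111.3 to 130.5 CPM in cells. The 8 fibroblast and mesenchymal markers were all listed, at a summed 5170 to 6804 CPM in exosomes and 6070 to 7460 CPM in cells. Endothelial markers summed to 0 to 10.8 CPM in exosomes and 8.16 to 11.6 CPM in cells, with CDH5 listed in neither. Leukocyte markers summed to 3.60 to 172 CPM in exosomes and 12.6 to 69.1 CPM in cells, with LYZ and CD3E listed in neither. Markers of red cells and serum summed to 0 to 26.8 CPM in exosomes and 0 to 0.217 CPM in cells. The part of these differences in the results on ribosomal mRNAs was not tested, and in bulk RNA fewer cells of a type and less RNA per cell cannot be told apart.

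The 40S subunit is built from the 18S ribosomal RNA and a fixed set of small proteins. It binds the messenger RNA, scans for the start codon and decodes it, while the large (60S) subunit joins the amino acids. Ribosomal protein mRNAs are short, abundant and long-lived. Most begin with a 5′ terminal oligopyrimidine (TOP) tract, a C followed by a run of C and T at the first transcribed bases, through which the kinase mTORC1 and the binding protein LARP1 control their translation together. Cardiomyocyte growth is known to call on ribosome synthesis.

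The genes lie on 17 chromosomes, 7 of them on chromosome 19. Principal transcripts had a median length of 894 bases, against 3245 bases over all genes listed in both compartments, and a median GC content of 51.6%, against 49.1%. Introns of 9 of the genes host 20 annotated small nucleolar RNA genes, 3 of them in RPS12. GENCODE names 413 processed or other pseudogenes for 32 of the genes, 74 for RPSA alone, and none of the 413 is listed in the files. How reads that match such a copy were assigned is not given in the sources used here, so each level may miss or include reads shared with copies.

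The start of transcription is shown for the genes that differed most and least between exosomes and cells, since the TOP tract is the sequence that the family shares. Sequences and starts are from RefSeq on GRCh38.p14. Each line holds 25 bases before the start and 20 from the start on, read 5′ to 3′ along the gene's strand, and capitals mark the run of C and T that opens with a C at the first transcribed base. The first 5 genes had the highest ratios among those with an entry.
RPS15, chr19:1438371-1438415, plus strand: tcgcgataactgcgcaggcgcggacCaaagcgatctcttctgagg
FAU, chr11:65122115-65122159, minus strand: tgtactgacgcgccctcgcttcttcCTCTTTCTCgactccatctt
RPS19, chr19:41860230-41860274, plus strand: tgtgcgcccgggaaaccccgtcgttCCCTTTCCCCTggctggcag
RPS23, chr5:82278335-82278379, minus strand: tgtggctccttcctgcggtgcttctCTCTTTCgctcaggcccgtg
RPS18, chr6:33272050-33272094, plus strand: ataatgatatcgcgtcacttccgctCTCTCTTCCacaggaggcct
The other 5 had the lowest ratios.
RPS4X, chrX:72277229-72277273, minus strand: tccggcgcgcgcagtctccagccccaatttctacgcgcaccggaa
RPS27, chr1:153990737-153990781, plus strand: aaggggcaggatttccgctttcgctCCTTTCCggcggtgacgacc
RPS27L, chr15:63157458-63157502, minus strand: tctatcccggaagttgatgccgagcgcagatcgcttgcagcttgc
RPS21, chr20:62387078-62387122, plus strand: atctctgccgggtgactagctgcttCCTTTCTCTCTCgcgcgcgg
RPS29, chr14:49598691-49598735, minus strand: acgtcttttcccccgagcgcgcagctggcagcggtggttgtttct

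RefSeq windows were found for 26 of the 34 genes. Of these, 19 (73.1%) had an annotated start with a C followed by at least 4 C or T, against 1404 of 27305 symbols (5.14%) in the whole table and 30 of 44 large subunit genes (68.2%). Here and for the hexamers below, a gene or symbol counted when any of its starts or windows matched. The hexamer CTTCCG on either strand, in the 250 bases before and 50 from the start on, was in 19 of 26 windows (73.1%), against 22.6% of all symbols. TATAAA on either strand was in 2 of 26 windows (7.69%), against 14.0% of all symbols. A match describes these letters and does not show that a factor binds. Long pyrimidine runs stood at both ends of the range: FAU and RPS19 have them, and so does RPS21, while RPS15 has a single C. The median log2 ratio of exosomes over cells was 0.72 for the 19 genes with an annotated TOP start and 0.71 for the 7 with another annotated start. It was 0.88 for the 8 with no entry. The first 2 medians were nearly equal. Starts were taken from RefSeq and not measured in these libraries. A gene with another annotated start may therefore still make mRNA with a TOP tract, and the 2 classes do not separate mRNAs with and without one.

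Small subunit mRNAs took a larger share of exosome reads than of cell reads. The 34 genes together took 2.19% ± 0.0198 of gene reads in Ang exosomes, 2.16% ± 0.0376 in Con exosomes, 1.39% ± 0.0252 in Ang cells and 1.31% ± 0.0287 in Con cells (SD, n = 3 each). The 6 exosome libraries ran from 2.13% to 2.21% and the 6 cell libraries from 1.28% to 1.42%, without overlap. In the edgeR fit to all 12 libraries, 29 of 34 genes were higher in exosomes (85.3%) and 0 were lower, against 17.6% higher and 19.5% lower among the 11811 genes tested. The median ratio was 1.65-fold (log2 0.72), against log2 -0.15 over all genes, and 10 genes were over 2-fold. Among all called genes 47.5% were higher in exosomes, against 31.8% with raw library sizes, which moved the median of all genes to -0.36, and 59.5% with the trend on length and GC content taken off. All 34 fitted values were positive, although RPS21 and RPS29 turned negative with raw library sizes, and RPS21, RPS27 and RPS29 with the trend taken off. For 29 of 34 genes (85.3%) every exosome library lay above every cell library, against 10.1% of all genes tested, and for 0 it lay below, against 13.1%. Of 11811 genes 37.1% passed in either direction.

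**Figure D1:**
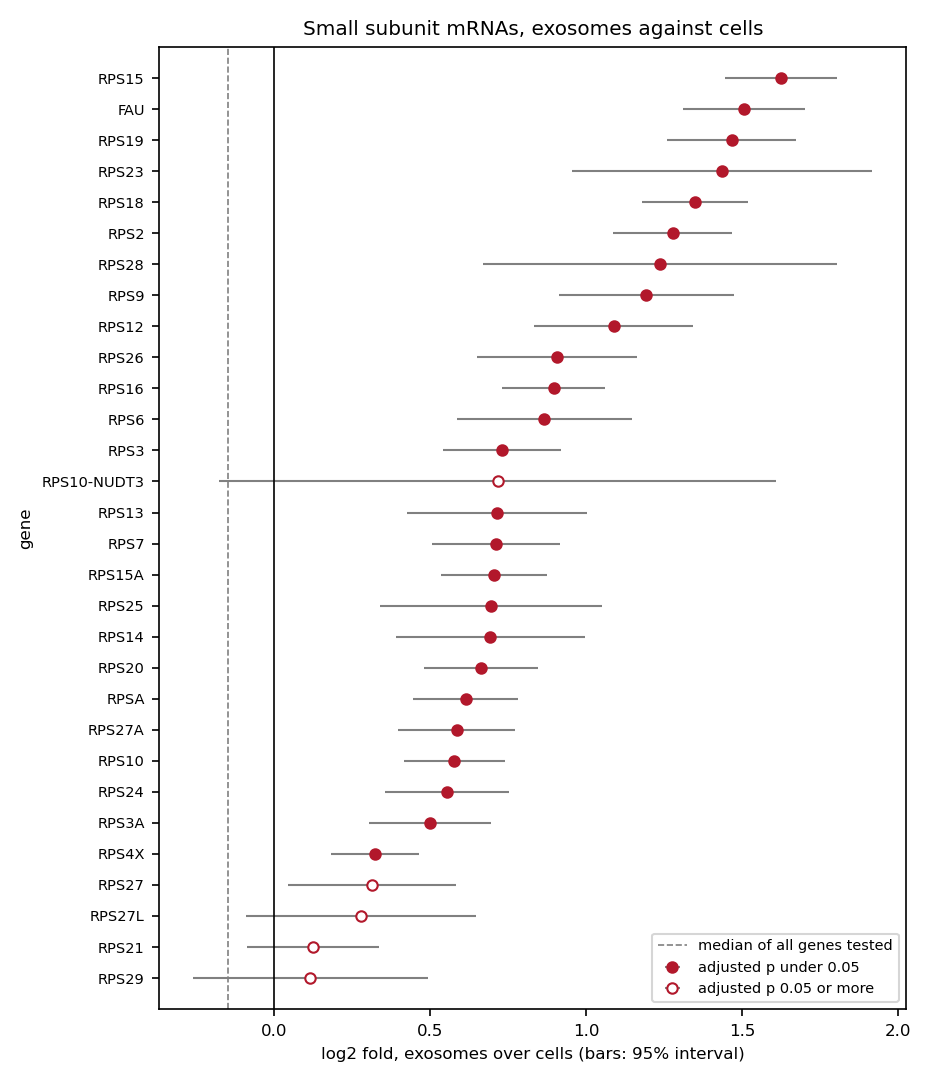
The plot of ratios gives the fitted log2 fold of exosomes over cells for 30 of the 34 genes, with its 95% interval as a bar; filled points passed an adjusted p of 0.05 and the dashed line is the median of all genes tested. Values run from 0.12 for RPS29 to 1.62 for RPS15, and the 5 open points are RPS10-NUDT3, RPS27, RPS27L, RPS21 and RPS29; RPS21 and RPS29 fall below 0 with raw library sizes, and RPS21, RPS27 and RPS29 with the length and GC trend taken off.

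RPS15 had the highest ratio of the genes described here. It contacts the decoding site from the head and is needed for export of the new subunit from the nucleus. RPS15 was read at 1091, 856 and 1009 CPM in Ang exosomes, 876, 951 and 950 CPM in Con exosomes, 295, 306 and 334 CPM in Ang cells and 317, 304 and 304 CPM in Con cells. The lowest exosome library was thus far above the highest cell library, and the fitted ratio was 3.08-fold (log2 1.62, SE 0.0827, adjusted p = 2.35e-08). With the trend of the ratio on length and GC content taken off it was lower, at log2 0.93, below RPS23, RPS19 and RPS28 among others. RPS18, a head protein next to the P-site tRNA, had 1316, 1618 and 1205 CPM in Ang exosomes, 1579, 1543 and 1548 CPM in Con exosomes, 580, 595 and 590 CPM in Ang cells and 582, 533 and 573 CPM in Con cells (log2 1.35, SE 0.0777, adjusted p = 7.41e-08). RPS19, the gene most often mutated in Diamond-Blackfan anaemia, had 1102, 808 and 1167 CPM in Ang exosomes, 945, 939 and 1068 CPM in Con exosomes, 367, 373 and 382 CPM in Ang cells and 362, 343 and 355 CPM in Con cells (log2 1.47, SE 0.0952, adjusted p = 2.19e-07). Both genes were separated between compartments in every library.

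RPS23 carries the hydroxylated proline loop of the decoding centre. It had 1332, 1602 and 1273 CPM in Ang exosomes, 1275, 1345 and 1056 CPM in Con exosomes, 531, 597 and 760 CPM in Ang cells and 301, 611 and 206 CPM in Con cells. Its exosome and cell libraries did not overlap (log2 1.44, SE 0.22, adjusted p = 0.000366), while its Con cell libraries alone ranged from 206 to 611 CPM. RPS28, close to the mRNA exit, was also higher in exosomes (log2 1.24, SE 0.261). RPS12 of the beak stood at 1.09 and RPS16 of the head at 0.90, both past the threshold, while RPS10 and RPS20, targets of the ubiquitin ligase ZNF598 on collided ribosomes, passed with ratios of 0.58 and 0.66. With the length and GC trend taken off, RPS10 had a log2 ratio of 0.13 and its call was lost (adjusted p = 0.194), and RPS20 had 0.27 (adjusted p = 0.0296).

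FAU, RPS2, RPS3 and RPS9, whose proteins lie at or near the mRNA entry channel, were higher in exosomes too. FAU encodes a ubiquitin-like protein fused to the ribosomal protein S30. It had 520, 650 and 543 CPM in Ang exosomes, 640, 662 and 625 CPM in Con exosomes, 218, 217 and 220 CPM in Ang cells and 224, 191 and 209 CPM in Con cells (2.84-fold, log2 1.51, SE 0.0905, adjusted p = 1.05e-07; log2 0.92 with the length and GC trend taken off). Of its exon bases, 21.6% are shared on the same strand with SYVN1. RPS2, which helps to unwind mRNA at the entry, was the most read gene of the set, with 2320, 2397 and 2779 CPM in Ang exosomes, 2157, 2453 and 2330 CPM in Con exosomes, 1063, 1061 and 1019 CPM in Ang cells and 1062, 749 and 1009 CPM in Con cells (log2 1.28, SE 0.0882, adjusted p = 3.83e-07). RPS3, its neighbour with a second role in DNA repair, averaged 919 ± 108 CPM in exosomes and 553 ± 12.9 CPM in cells (SD, n = 6 each; log2 0.73, adjusted p = 4.08e-05). RPS9, also close to the entry, stood at 1.19.

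Proteins of the platform and the mRNA exit include RPS14, RPS26, RPS3A and RPSA, and RPS6 lies on the subunit's body. RPS14, whose loss of 1 copy underlies the anaemia of the 5q- syndrome, averaged 229 ± 42.0 CPM in exosomes and 142 ± 4.37 CPM in cells (log2 0.69, SE 0.14, adjusted p = 0.00203; SD, n = 6 each). RPS26, which touches mRNA just upstream of the start codon, averaged 265 ± 37.1 CPM in exosomes and 141 ± 9.74 CPM in cells (log2 0.91, SE 0.118, adjusted p = 8.53e-05). RPS3A had a log2 ratio of 0.50. RPSA, which also has a life as a laminin receptor at the cell surface, averaged 1160 ± 56.3 CPM in exosomes and 759 ± 73.3 CPM in cells (log2 0.61, SE 0.0771, adjusted p = 6.46e-05). RPS6, known as the substrate of the S6 kinases downstream of mTORC1, averaged 1087 ± 123 CPM in exosomes and 596 ± 105 CPM in cells (log2 0.87, SE 0.13, adjusted p = 0.000256).

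RPS27A, the other gene of a ubiquitin fusion, averaged 479 ± 33.8 CPM in exosomes and 319 ± 16.1 CPM in cells (log2 0.59, SE 0.0862, adjusted p = 0.000228; SD, n = 6 each). Both ubiquitin-type fusions were therefore higher in exosomes, with FAU at the larger ratio. RPS7, RPS13, RPS15A, RPS24 and RPS25 also passed, with log2 ratios of 0.56 to 0.72. With the length and GC trend taken off, the calls of RPS24 (log2 0.25, adjusted p = 0.0559) and RPS25 (log2 0.37, adjusted p = 0.105) were lost, and RPS25 did not pass in limma either (log2 0.71).

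RPS4X, the X-linked S4 gene, was the lowest of the genes that passed. It had 1070, 1190 and 1322 CPM in Ang exosomes, 1361, 1320 and 1412 CPM in Con exosomes, 1040, 1042 and 1060 CPM in Ang cells and 1006, 982 and 986 CPM in Con cells (log2 0.32, SE 0.0647, adjusted p = 0.0019). Its libraries did not overlap between compartments, but the call was lost with raw library sizes (log2 0.11, adjusted p = 0.192).

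The 5 genes that did not pass were RPS29, RPS21, RPS27, RPS27L and RPS10-NUDT3. RPS29, a zinc-binding protein of the head, had 48.5, 42.3 and 66.1 CPM in Ang exosomes, 37.4, 33.8 and 31.5 CPM in Con exosomes, 39.4, 38.7 and 38.3 CPM in Ang cells and 35.9, 40.4 and 41.0 CPM in Con cells (log2 0.12, 95% interval -0.26 to 0.49, adjusted p = 0.621). RPS21 had 342, 408 and 422 CPM in Ang exosomes, 423, 509 and 381 CPM in Con exosomes, 378, 386 and 403 CPM in Ang cells and 364, 367 and 376 CPM in Con cells (log2 0.13, 95% interval -0.08 to 0.34, adjusted p = 0.329). Exosome and cell libraries overlapped for both, and the upper bounds of their intervals lay below the median of the set.

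The paralogues RPS27 and RPS27L encode nearly the same zinc finger protein, RPS27L being known as a target of p53. RPS27 had 235, 265 and 336 CPM in Ang exosomes, 341, 235 and 305 CPM in Con exosomes, 239, 226 and 253 CPM in Ang cells and 222, 218 and 222 CPM in Con cells (log2 0.32, 95% interval 0.05 to 0.58, adjusted p = 0.0636). It passed without Ang exosome library 1 (log2 0.37, adjusted p = 0.0347) or without Con exosome library 2 (log2 0.38, adjusted p = 0.0229). RPS27L had 64.1, 64.3 and 64.1 CPM in Ang exosomes, 54.7, 64.6 and 101 CPM in Con exosomes, 56.3, 52.5 and 54.9 CPM in Ang cells and 62.9, 56.9 and 55.0 CPM in Con cells (log2 0.28, 95% interval -0.09 to 0.65, adjusted p = 0.214). Libraries of the compartments overlapped for both. RPS10-NUDT3 averaged 5.71 ± 3.21 CPM in Ang exosomes, 46.5 ± 32.5 CPM in Con exosomes, 11.0 ± 1.87 CPM in Ang cells and 9.05 ± 1.19 CPM in Con cells (SD, n = 3 each; exosomes over cells log2 0.72, 95% interval -0.17 to 1.61, adjusted p = 0.191). Its 3 Con exosome libraries stood above all cell libraries, but its Ang exosome libraries did not.

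**Figure D2:**
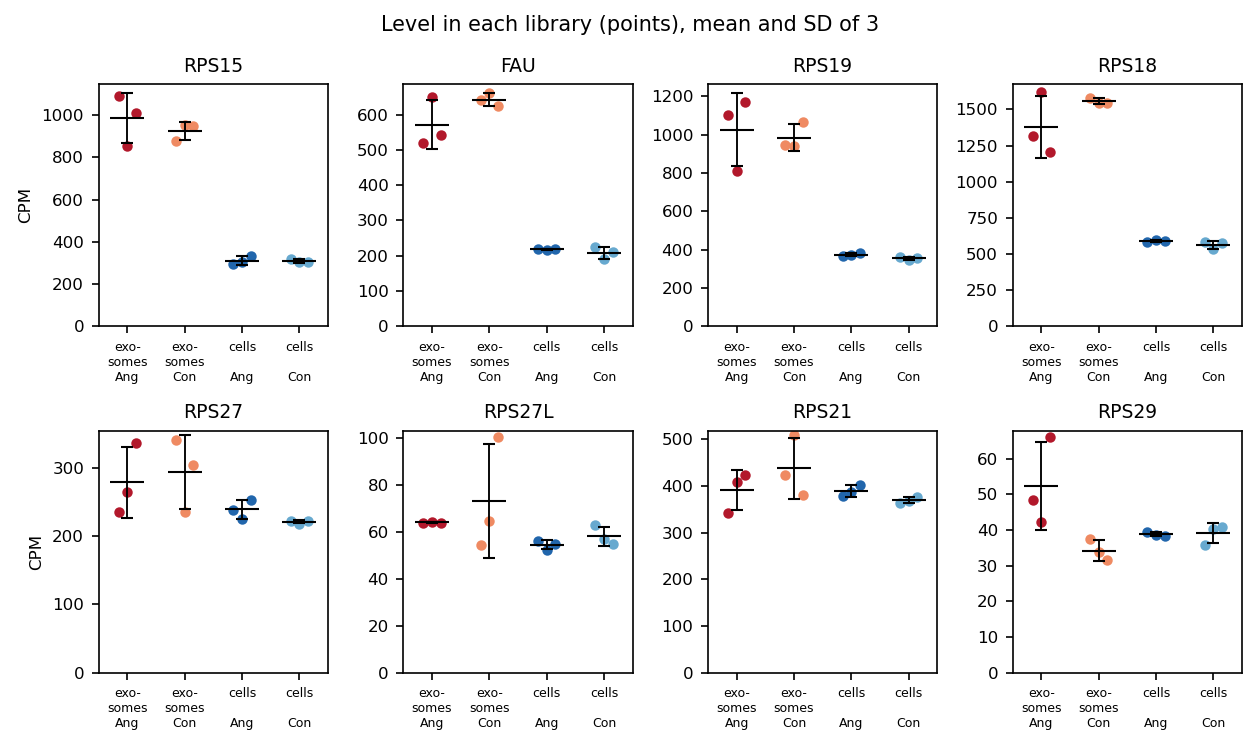
The panels of library levels show CPM (linear axis from 0) of 4 genes with high ratios, RPS15, FAU, RPS19 and RPS18, above 4 with low ratios, RPS27, RPS27L, RPS21 and RPS29; points are libraries, and the line and bar are the mean and SD of 3. In the upper row the exosome points stand clear of the cell points, and in the lower row they overlap.

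Per kilobase of coding sequence, the median level of the set was 1328 CPM in exosomes and 731 CPM in cells. In exosomes RPS18 ranked first at 3220 ± 366 CPM per kilobase, followed by RPS23 at 3062 ± 409 and RPS2 at 2737 ± 237 (SD, n = 6 each), and these neighbours did not differ beyond their spread. In cells RPS21 ranked first at 1522 ± 56.3 CPM per kilobase, followed by RPS20 at 1470 ± 101 and RPS4X at 1292 ± 41.3. In exosomes RPS20 ranked 4, RPS21 10 and RPS4X 12, and in cells RPS18 ranked 4. Over the longest transcript or all exons, RPS2 ranked first in both compartments. RPS29, RPS27L, RPS13 and RPS10-NUDT3 were among the lowest in both. As shares of small subunit reads, RPS2 made up 10.3% ± 0.771 in exosomes and 7.87% ± 0.876 in cells, RPS15 4.07% ± 0.360 in exosomes and 2.46% ± 0.106 in cells, and RPS21 1.77% ± 0.223 in exosomes and 3.01% ± 0.0901 in cells.

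Across the 34 genes, the log2 ratio went with the GC content of the transcript (Pearson r 0.55, Spearman rho 0.49) and hardly with coding length (0.19 and 0.14), transcript length (0.06 and 0.04) or level in cells (0.13 and 0.01). These are descriptions across genes that share the same libraries and are not independent replicates. The 17 genes of higher GC content (51.6% to 61.6%) had a median log2 ratio of 0.96, and the 17 of lower GC content (42.6% to 51.5%) had 0.71. The 54 large subunit genes tested gave a Pearson r of 0.56 with GC content. RPS15 and FAU have the highest GC contents, at 61.6% and 60.6%, but RPS23 reached 1.44 at 44.6% and RPS21 stayed at 0.13 at 52.3%. When the trend of the ratio on length and GC over all genes was taken off, 27 of the 34 genes passed in either direction, against 3630 of 11811 genes tested. The median of the set was then 0.58. RPS21 was then called lower in exosomes (log2 -0.41, adjusted p = 0.00664) and RPS27L higher (log2 0.75, adjusted p = 0.00535). The trend rests on the length and GC content of the annotated principal transcript. That transcript has 6434 bases for RPS27L, 3437 for RPS23 and 2359 for RPS19, against coding lengths of 252, 429 and 435 bases. Whether these cells make such long transcripts was not tested, so the corrected values of these genes depend on the annotation. The order of the ratios changed as well, with RPS23 at 1.84, RPS19 at 1.41, RPS28 at 1.02, RPS18 at 0.94, RPS15 at 0.93, FAU at 0.92 and RPS2 at 0.78. Other genes lay between these, among them RPS10-NUDT3 at 1.16 and RPS3 at 0.96. The kits differ between compartments, and their part in this relation was not tested.

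**Figure D3:**
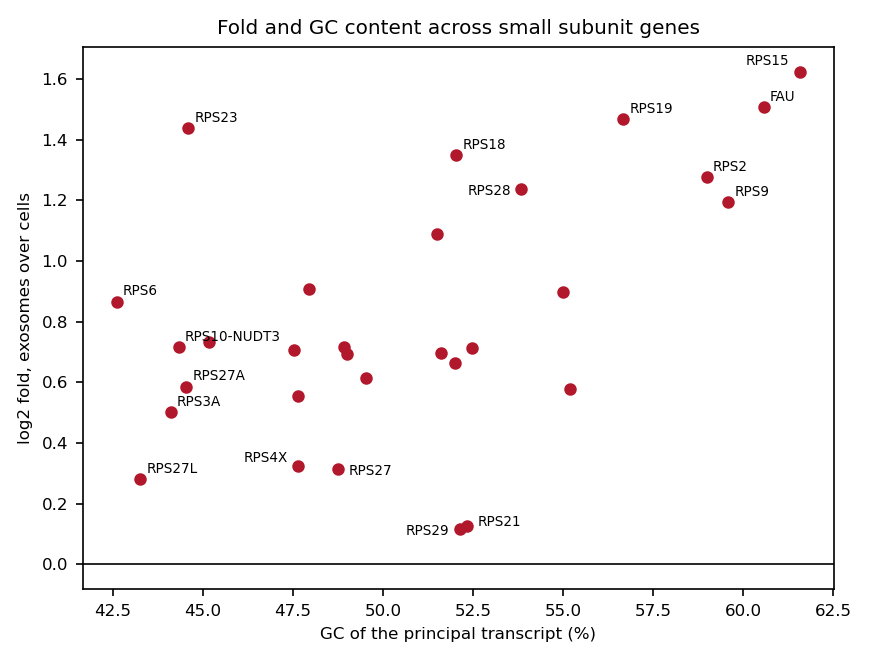
The scatter of ratio against GC content has 1 point a gene (30 of the 34 genes), with GC of the principal transcript in percent on the horizontal axis and the log2 ratio of exosomes over cells on the vertical axis. Ratios above 1.4 at GC above 56% belong to RPS15, FAU and RPS19, RPS23 stands high at 44.6%, and RPS21 and RPS29 lie near 0 at about 52% GC.

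The same comparison was made within each label. Con exosomes were higher than Con cells for 29 of 34 genes and lower for 0, against 11.2% higher and 9.26% lower among all genes (20.4% in either direction), with a median log2 ratio of 0.78. Ang exosomes were higher than Ang cells for 25 of 34 genes and lower for 0, against 11% higher and 10.7% lower among all genes (21.8% in either direction), with a median of 0.76. RPS21, RPS27, RPS27L and RPS29 were among those that did not pass in either. RPS29 had log2 ratios of 0.43 (SE 0.244) in Ang and -0.19 (SE 0.246) in Con. RPS4X had 0.19 (SE 0.0915) in Ang, which did not pass, and 0.46 (SE 0.0915) in Con, which did. RPS25 and RPS28 also passed in Con but not in Ang, where their adjusted p-values were 0.0527 and 0.0722. RPS10-NUDT3 had -0.92 (SE 0.633) in Ang, which did not pass, and 2.36 (SE 0.477, adjusted p = 0.00426) in Con. For none of these 5 genes did the difference between Ang and Con itself pass in edgeR (adjusted p = 0.303 to 0.998).

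Several of these calls lay close to the threshold and were lost without 1 library, mostly at similar ratios. In Con, the call of RPS13 (adjusted p = 0.0492 with all libraries) was lost when any one of the cell libraries was left out, and without Con exosome library 1 or 3 (log2 0.41 to 0.62, adjusted p = 0.0547 to 0.139), and RPS14 was lost when any one Con cell library was left out, and without Con exosome library 1 or 2 (log2 0.49 to 0.72, adjusted p = 0.0589 to 0.0963). RPS25 (adjusted p = 0.0481 with all libraries) was lost there without Ang cell library 1, Con cell library 1 or 2, Ang exosome library 1 or any one Con exosome library (log2 0.56 to 0.78, adjusted p = 0.0506 to 0.145), RPS28 was lost without Con exosome library 2 (log2 1.23, adjusted p = 0.0546), and RPS27 was gained without that library (adjusted p = 0.0429). In Ang, RPS14 was lost without Ang cell library 1 or 2 or Ang exosome library 1 (log2 0.60 to 0.73, adjusted p = 0.0534 to 0.0642), and RPS23 without Ang cell library 1 or 2 or Ang exosome library 2 (log2 1.04 to 1.15, adjusted p = 0.0589 to 0.0658). RPS25 was gained in Ang without Ang cell library 2 or Con cell library 2 or 3 (adjusted p = 0.0345 to 0.0478), and RPS28 without Con cell library 1 (adjusted p = 0.046).

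Other genes of ribosome biology set the small subunit in context. Large subunit mRNAs took 4.88% ± 0.108 of reads in Ang exosomes, 4.99% ± 0.0391 in Con exosomes, 2.97% ± 0.0139 in Ang cells and 2.91% ± 0.0652 in Con cells (SD, n = 3 each). Of 54 tested, 46 were higher in exosomes (85.2%, against 17.6% of all genes) and 0 lower, with a median log2 ratio of 0.81, led by RPLP2 of the stalk, RPL29 (1.64) and RPL36 (1.61). RPLP2 averaged 1441 ± 97.9 CPM in exosomes and 336 ± 80.7 CPM in cells (SD, n = 6 each). RACK1, the signalling scaffold on the 40S head, had a log2 ratio of 0.50 (SE 0.0647, adjusted p = 7.67e-05). Other TOP mRNAs were higher for 19 of 29 (65.5%, against 17.6% of all genes) and lower for 2, with a median of 0.50. Among them were NACA of the nascent chain complex (1.35) and the elongation factors EEF2 (1.24) and EEF1D (1.21), against PABPC4 (-0.48) and EIF3E (-0.44) on the lower side.

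Factors that build the subunit were called about as often as any gene. Of 64 factors of 40S assembly, 12 were higher in exosomes (18.8%, against 17.6% of all genes) and 12 lower (19.5% of all genes), with a median log2 ratio of -0.02. DDX47, a helicase of early assembly, averaged 11.2 ± 6.18 CPM in exosomes and 85.1 ± 4.51 CPM in cells (SD, n = 6 each; log2 -2.96, adjusted p = 2.21e-06), and UTP20 (-1.74) and WDR75 (-1.16) were also lower. NOL6 (2.11), NOL7 (1.61) and SURF6 (1.39) were higher. Of 26 initiation and other factors that bind the 40S subunit, 12 were higher (46.2%, against 17.6% of all genes) and 1, EIF3E, was lower, the same gene as in the TOP list. SERBP1, which occupies the mRNA channel of idle ribosomes, averaged 1270 ± 123 CPM in exosomes and 278 ± 111 CPM in cells (log2 2.20, adjusted p = 5.99e-06), beside the initiation factor subunits EIF3A (2.20) and EIF3B (2.04). Regulators of TOP mRNA translation were higher for 3 of 24 (12.5%, against 17.6% of all genes) and lower for 7, with a median of -0.33, and the share called in either direction was 41.7%, near the 37.1% of all genes. The mTORC2 subunit RICTOR (-1.15), the kinase RPS6KA3 (-1.04) and the scaffold EIF4G1 (-0.82) were lower, and the repressor EIF4EBP1 (1.38), the transcription factor MYC (1.29) and the GTPase RHEB (0.49) were higher.

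The small subunit of the mitochondrial ribosome, a separate set of nuclear genes, had 10 of 33 genes higher in exosomes (30.3%, against 17.6% of all genes) and 3 lower, with a median log2 ratio of 0.35. The share called in either direction, 39.4%, was near the 37.1% of all genes. MRPS11 (1.91), AURKAIP1 (1.72) and MRPS26 (1.40) were higher, and PTCD3 (-1.09) and MRPS22 were lower, MRPS22 averaging 36.5 ± 17.8 CPM in exosomes and 72.5 ± 5.24 CPM in cells (SD, n = 6 each). MRPS17, the other gene called lower, averaged 14.4 ± 16.1 CPM in exosomes and 15.6 ± 1.87 CPM in cells (SD, n = 6 each), a spread above its mean in exosomes. Its fitted value was log2 -4.29 (SE 0.824, adjusted p = 0.00232), far from the ratio of these means. Within labels, 0 genes of this list were called lower in Con and 1 in Ang, so the call does not hold in Con exosomes.

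Between Ang and Con cells, no small subunit mRNA passed the threshold. The edgeR fit to the 6 cell libraries called 0 of 34 genes, against a background of 0% of 13331 genes, of which 816 had an unadjusted p under 0.05. DESeq2 called 60 genes and 0 of the 34. Unadjusted p-values were under 0.05 for 2 of the 34, RPS3A among them. RPS3A had 536, 518 and 538 CPM in Ang cells, against 499, 495 and 485 CPM in Con cells (log2 0.10, SE 0.0373, unadjusted p = 0.0385, adjusted p = 0.795). The lowest Ang library lay above the highest Con library for this gene, which encodes a platform protein.

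The fitted values were small and mostly of 1 sign. In cells 29 of 34 were positive (85.3%), against 49.8% of all genes, with a median log2 value of 0.07, against -0.0008 over all genes, and 30 of 34 lay within 0.2 of 0. Most other TOP mRNAs (82.8%), large subunit genes (72.2%) and factors on the 40S subunit (69.2%) were positive too. The share was 64.1% of 40S assembly factors, 60.6% of mitochondrial small subunit genes and 45.8% of regulators of TOP mRNA translation. The 34 genes share the same 6 libraries and are not independent replicates. Ang libraries lay above Con libraries without overlap for 10 genes (29.4%), against 7.01% of all genes, and below for 0, against 6.89%. Among the 10 were RPS3A, RPS4X, RPS15A, RPS16, RPS19, RPS21, RPS27 and RPS28. Summed over the set, Ang cells gave 1.39%, 1.37% and 1.42% of gene reads, against 1.34%, 1.30% and 1.28% in Con cells, also without overlap. This separation depends on RPS23, which made up 4.09%, 4.69% and 5.72% of the summed reads in Ang cells and 2.39%, 5.04% and 1.72% in Con cells. Without RPS23 the groups would overlap, with Con library 1 above Ang library 2. RPS4X had a log2 value of 0.07 (SE 0.0301, adjusted p = 0.814). On the negative side RPS27L had -0.10 (SE 0.0772) and RPS3 -0.02 (SE 0.0392).

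Between Ang and Con exosomes, no small subunit mRNA passed either. The fit to the 6 exosome libraries called 0 of 34 genes, against 0.012% of 8327 genes, of which 316 had an unadjusted p under 0.05, and DESeq2 called 16 genes and 0 of the 34. Positive values were found for 20 of 34, with a median log2 value of 0.04. RPS7, known to bind MDM2, had 408, 503 and 551 CPM in Ang exosomes, against 416, 383 and 419 CPM in Con exosomes (log2 0.27, 95% interval -0.11 to 0.65). RPS23 had a log2 value of 0.20 (SE 0.128) and RPS16 0.19 (SE 0.13), while RPS4X had -0.19 (SE 0.109) and RPS18 -0.17 (SE 0.118). Ang libraries lay above Con libraries without overlap for 3 genes, RPS16 and RPS29 among them (8.82%, against 5.18% of all genes) and below for RPS10-NUDT3 alone (2.94%, against 5.6% of all genes). RPS10-NUDT3 passed the low-count filter of this fit through its Con libraries alone. RPS29 had a log2 value of 0.61 (SE 0.416). The SE had a median of 0.146 over the 34 genes in exosomes and 0.0552 in cells. In simulated exosome counts over genes of all levels, 1% of 2-fold and 35% of 4-fold changes were called, and in simulated cell counts 32% and 84%. The changed genes were drawn from all genes tested, so these shares are not the sensitivity for the 34 genes. That sensitivity was not simulated.

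**Figure D4:**
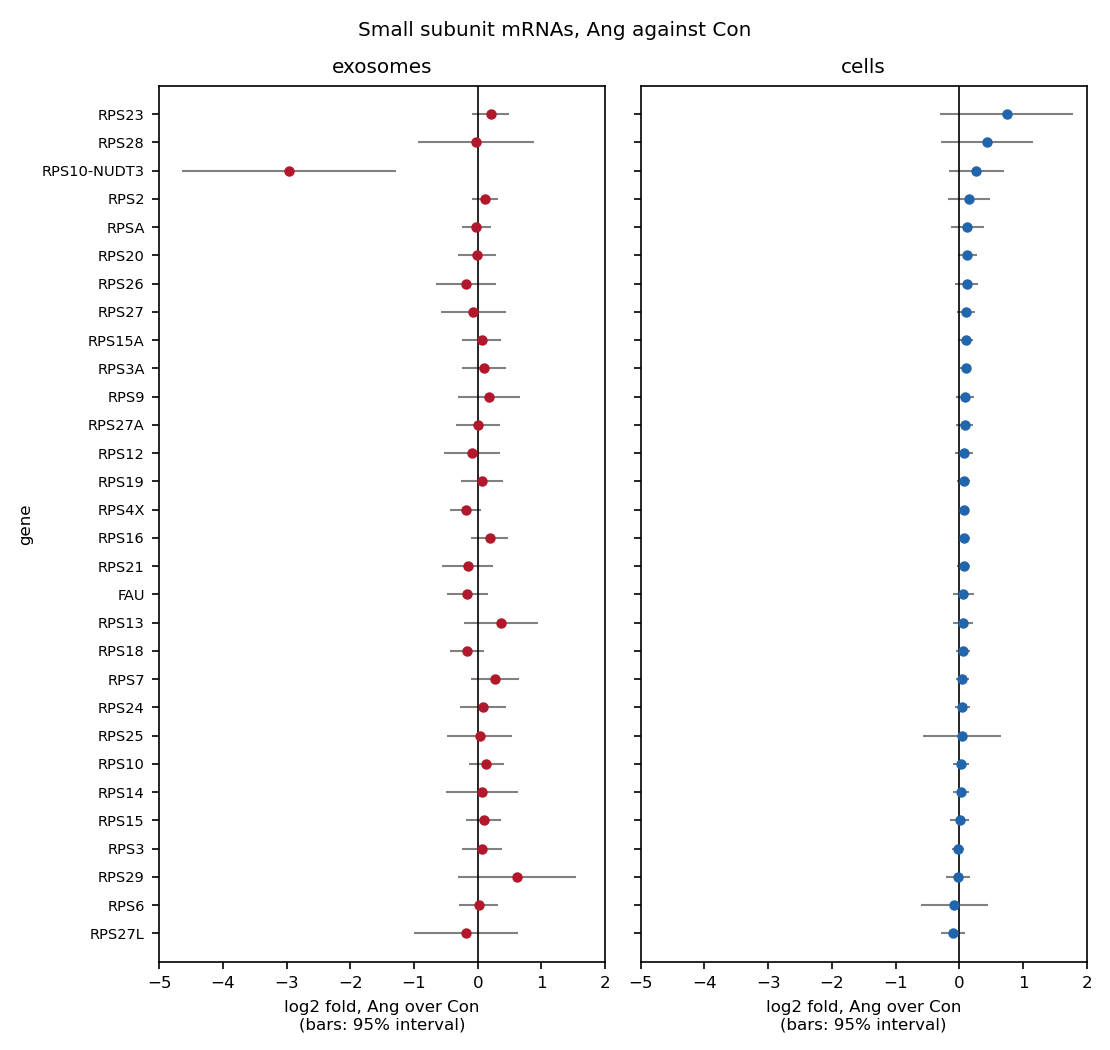
The paired plot gives the fitted log2 fold of Ang over Con for 30 of the 34 genes, in exosomes on the left and in cells on the right, with 95% intervals as bars and genes in the order of the cell values. In exosomes 25 of the 30 points and in cells 27 of 30 lie within 0.2 of 0, RPS10-NUDT3 is at -2.96 and RPS29 at 0.61 in exosomes, and RPS23 is at 0.75 in cells.

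RPS10-NUDT3 (chr6:34284887-34426071, minus strand, GENCODE 29 on GRCh38) had the widest difference of the set between Ang and Con exosomes. It was counted at 4, 4 and 1 reads in Ang exosomes, against 22, 57 and 16 reads in Con exosomes. The groups did not overlap, and the sums were 9 reads in Ang and 95 reads in Con exosomes. All its Ang exosome counts lay below the read minimum of the low-count filter. The fit to exosome libraries therefore kept this gene through its Con libraries alone. Such a gene is kept only when that group is high, so its separation and fitted exosome value cannot decide whether the labels differ. The fitted log2 value was -2.96 (SE 0.751, unadjusted p = 0.00284, adjusted p = 0.815), and in cells it was 0.27 (SE 0.176), from 128, 113 and 107 reads in Ang cells and 94, 105 and 93 reads in Con cells. Of its exon bases 99.7% also belong to RPS10 or NUDT3, so its reads cannot be told apart by position from theirs. NUDT3 itself had 125, 106 and 89 reads in Ang exosomes and 167, 151 and 116 in Con exosomes, and RPS10 had a log2 value of 0.13 (SE 0.124). The NUDT3 reads are not scaled to depth, which was 535442 to 587783 gene reads in Ang and 717263 to 745311 in Con exosome libraries. Scaled to these totals, the NUDT3 levels of the groups overlap.

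The Ang minus Con change in exosomes was also set against that in cells, in 1 model of 12 libraries. In edgeR 0 of the 34 genes passed, against 0.0254% of all genes (0.00847% higher and 0.0169% lower), and 1 of the 34 and 971 of all genes had an unadjusted p under 0.05. The 1 gene of the set was RPS10-NUDT3 (log2 difference -3.28, SE 0.772, adjusted p = 0.303), which DESeq2 called (adjusted p = 0.00432). That call uses the same low Ang exosome counts. RPS4X followed with -0.27 (95% interval -0.55 to 0.01, adjusted p = 0.624) and RPS29 with 0.62 (95% interval -0.13 to 1.37, adjusted p = 0.688).

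Most of the genes varied little within a group. Coefficients of variation over 3 libraries had a median of 12.1% in Ang exosomes, 8.09% in Con exosomes, 3.12% in Ang cells and 4.12% in Con cells. A few single libraries stood apart. RPS23 had 5214, 6509 and 8606 reads in Ang cells and 3030, 6376 and 2474 reads in Con cells. Its Ang against Con value in cells was 0.75 (SE 0.419, adjusted p = 0.834), 1.31 without Con cell library 2 (adjusted p = 0.599), 0.45 without Con cell library 3 and 0.61 without Con cell library 1. RPS28 had 463, 457 and 481 reads in Ang cells and 189, 391 and 484 reads in Con cells, and its log2 value of 0.44 became 0.16 without Con cell library 1. RPS23 and RPS28 were picked out after their values were seen, while RPS10-NUDT3 in Ang exosome library 3 was the only case more than 4-fold below the median of a compartment (7.94-fold).

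**Figure D5:**
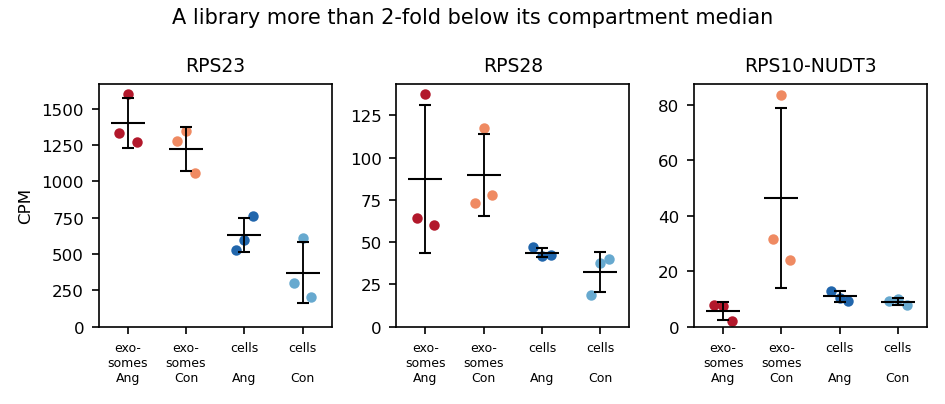
The panels of variable genes show CPM (linear axis from 0) in each library of RPS23, RPS28 and RPS10-NUDT3, which had a library more than 2-fold below the median of its compartment; the line and bar are the mean and SD of 3. RPS23 is low in Con cell libraries 1 and 3 but not in 2, RPS28 drops in 1 Con cell library and RPS10-NUDT3 is low in the Ang exosomes.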

How the data were processed

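Per the file headers, each library was deposited as a table of gene read counts (whole numbers, Ensembl identifiers); circular RNA files hold counts of back-splice reads. The submitters' processing notes name HISAT2, StringTie and GRCh38, with neither versions nor roles. How reads were counted, strand setting and annotation release: not given in the sources used here.

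Counts were tested with edgeR 4.0.16 in R 4.3.3 (quasi-likelihood test, robust, trimmed mean of M-values scaling, filterByExpr at 10 reads minimum and 15 in total, Benjamini-Hochberg adjustment over all genes tested, threshold 0.05, two-sided) after the script was tested on simulated data. Exosomes were compared with cells, and the changes between them, in 1 model of 12 libraries, over genes that both compartments list; Ang was compared with Con within each compartment. CPM values carry the same scaling, except the sums of cell type markers, which use raw library totals. Intervals are 95% intervals of the fitted log2 value. DESeq2 1.42.0, limma 3.58.1 with library weights, other scalings, no filter, a replicate block, each library left out and a length and GC correction were alternatives. Lengths, GC and overlaps are from GENCODE 29 (GRCh38). Levels per length use the coding sequence of the principal transcript, a choice made after annotated retained introns were seen to lengthen other measures. Depth limits precision: a gene with few exosome reads has wide intervals.

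The members and the gene lists were chosen with earlier results of these data known. The rule for named genes took the 6 highest and 6 lowest ratios, all genes not passing and 11 fixed genes; for Ang against Con, the 3 smallest p-values in each direction; and up to 3 passing genes a side from each of 6 companion lists. Results on a few single genes are not reported here, though the genes count in all totals. No genome sequence or protein table was used.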

Additional observations from a re-analysis of the deposited data

How the results depend on the processing

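Among the 34 genes, the count past the threshold in either direction for exosomes over cells stayed between 27 and 31 under every alternative. With the length and GC trend taken off, the 27 genes that passed include RPS21, which was called lower in exosomes. Within labels it was 21 to 31 in Con and 21 to 30 in Ang. Over all genes tested, the share called for exosomes over cells was lowest with the trend off (3630 of 11811 genes) and highest with DESeq2 (5713 of 11795). It ran from 1565 of 10240 to 4177 of 11795 genes in Con and from 1608 of 11811 to 4127 of 11795 in Ang. The count for the difference of the Ang against Con changes was 0, except 1 with DESeq2 (RPS10-NUDT3). Medians of the set moved with raw library sizes (0.51 over all libraries, 0.55 in Ang, 0.56 in Con) and with the length and GC trend taken off (0.58, 0.66 and 0.55), and in Ang with DESeq2 (0.81) and RLE scaling (0.81). Signs turned for RPS21 (-0.0878 with raw sizes and -0.41 with the trend off; in Ang -0.20 and -0.42; in Con -0.41 with the trend off), RPS29 (-0.10 and -0.27), RPS27 with the trend off (-0.14 over all, -0.12 in Ang and -0.17 in Con) and RPS4X in Ang with raw sizes (-0.022). The cause was not tested. Median levels per kilobase fell to 675 CPM in exosomes and 312 in cells over the principal transcript (chosen after seeing the data), 404 and 182 over the longest transcript and 262 and 118 over all exons. Leaving out 1 library gave counts of 29 to 30 over all, 23 to 26 in Ang and 26 to 29 in Con, with medians of 0.74 to 0.79, 0.71 to 0.81 and 0.77 to 0.84; medians of -0.086 to -0.014 for the difference of changes, 0.01 to 0.07 for Ang against Con in exosomes and 0.05 to 0.08 in cells, with 0 called in each. RPS21 in Ang ranged from -0.062 to 0.089, and for Ang against Con in cells RPS3 from -0.038 to 0.0061. Over all genes DESeq2 called more than edgeR: 5713 against 4380 for exosomes over cells, 4127 against 2571 in Ang, 4177 against 2412 in Con, 368 against 3 for the difference of changes, 16 against 1 for Ang against Con in exosomes and 60 against 0 in cells. With limma 1608 genes were called in Ang, and a fit to 12 libraries called 22 for Ang against Con in exosomes. The lower depth of exosome libraries limits what can be seen of low genes such as RPS10-NUDT3. Without RPS10-NUDT3 the median over all libraries was 0.73, an alternative added after seeing the data.

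With the replicate number as a block, 29 genes passed over all libraries, 25 in Ang, 27 in Con and 0 in the 3 comparisons of Ang with Con, with medians of 0.72, 0.75 and 0.79 for exosomes over cells, -0.04 for the difference of changes, 0.03 in exosomes and 0.07 in cells. Of all 11811 genes tested for exosomes over cells, 3893 passed over all libraries, 2074 in Ang and 1956 in Con. The block brought no gene of the set past the threshold in a comparison of Ang with Con. Deviations of libraries with the same number were hardly correlated over all genes (-0.0323 to 0.0157). Such values cannot decide whether libraries with the same number were handled together, and the labels do not say.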

Other observations

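Circular RNAs were rare in these genes. In exosomes 1 circle was listed, in RPS10-NUDT3 (chr6:34288740-34370492), with 6 back-splice reads in Con library 3 and 0 in the other libraries. In cells 2 were listed: 1 within RPS3 (chr11:75404421-75404566), with 5 reads in Ang library 2 and 8 in Con library 3, and 1 in RPS10-NUDT3 (chr6:34341862-34370492), with 2 reads in Ang library 3. Circles were assigned by position within the span of a gene. Both circles of RPS10-NUDT3 lie outside RPS10 (chr6:34417454-34426125), in the part of the span that runs into NUDT3. Whether they come from NUDT3 was not tested. The files list 939 circles in exosomes and 5179 in cells.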
